A study of Rattus norvegicus with 12 samples.

Results

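The nuclear genes for subunits of the respiratory chain and of the ATP synthase were followed in the bladder body of the ageing rat. Members were all genes whose symbol, taken from the RefSeq accession of the probe, belongs to the families of complex I (Ndufa, Ndufb, Ndufc, Ndufs and Ndufv), complex II (Sdha to Sdhd), complex III (Uqcr and Cyc1), complex IV (Cox4 to Cox8) or the ATP synthase (Atp5). The name rule also takes in complex I assembly factors (Ndufaf), the paralogue Ndufa10l1 and the pseudogene Cox6c-ps1. A gene entered if a probe was well above background, by the scanner software's own call, on all 4 arrays of at least 1 group, and its brightest such probe stood for it. Of 83 symbols with a probe, 82 entered, out of 20425 genes and unnamed transcripts tested. The one left out was Cox8c, which was well above background on none of the 12 arrays. No probe carried the symbol Cyc1, so cytochrome c1 was not followed and all complex III members are Uqcr genes. All 82 members were well above background on all 12 arrays, so no member entered through 1 group only.

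Each of 12 male Fischer 344 rats gave RNA for 1 single-colour array. Young animals were 6 months old and fed freely (n = 4), old animals were 25 to 28 months old and fed freely (n = 4), and old restricted animals of the same ages had been fed on 3 days a week since 6 weeks of age, which lowered intake by about 40% (n = 4). The series title asks which changes in inflammation and oxidation come with age and whether restriction prevents them. Levels are the log2 of the deposited signal relative to the 75th percentile of its own array, so a level of 1 stands for a signal of 2 times that percentile. Adjusted p-values are limma's two-sided values, adjusted over all 20425 features with the Benjamini-Hochberg method, and a gene is called below 0.05.

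The respiratory chain passes electrons from NADH (complex I) and succinate (complex II) through coenzyme Q, complex III and cytochrome c to oxygen at complex IV, and pumps protons across the inner mitochondrial membrane on the way. The ATP synthase lets the protons flow back and makes ATP. Most subunits are encoded in the nucleus, a few of the core membrane subunits in mitochondrial DNA, and several complex IV subunits exist as isoforms that differ between tissues. In the bladder wall, the smooth muscle of the detrusor uses ATP to contract, and the urothelium lines the lumen.

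Young arrays filled the first row and old freely fed arrays the second row of the same slide, while restricted arrays lay on another slide read in another scan. Restriction and slide therefore cannot be told apart, and neither can age and array row. Mean negative control signals were 11.2 to 12.1 on young, 3.70 to 5.29 on old freely fed and 5.84 to 7.76 on restricted arrays, against 75th percentiles of 3993 to 4892 over all arrays. The array of old freely fed replicate 2 stood apart from its group on the first principal component of all features, at 51.9 against 7.27 to 13.7 for the other 3. The members are bright genes: 73 of 82 were in the brightest 25% of features, which makes those 5107 features the closer comparison group and the scaling between arrays a choice that matters.

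The subunit genes stood slightly lower in old than in young freely fed bladders, with a median log2 difference of −0.136 (a change in signal of −9.01%). Differences were below 0 for 79 of 82 members, and the quartiles of the members were −0.170 and −0.082. The median over all features was −0.046 and over the brightest 25% −0.066. By limma, 10 members fell and 1 rose. The 10 were 12.2% of members, against 2.11% of all features called lower and 3.47% of the brightest 25%. The single riser compares with 1.63% of all features called higher. Young and old values did not overlap for 25 members that were lower (30.5%; 9.37% of all features and 12.9% of the brightest 25%) and for 1 that was higher (5.69% of all features). These counts depend on the scaling: after quantile scaling, which gives all arrays the same distribution of signals, the median was −0.054, 62 members were below 0, and 1 fell and 1 rose, against 0.744% of all features called lower and 1.78% higher. The median of the brightest 25% was then 6.99e-05. With only the 8 freely fed arrays in the fit, 0 members were called in either direction, where limma called 27 features lower and 67 higher over the whole table. The count lower also depended on single animals, and so did the calls over all features. It was 2 and 1 without old freely fed replicates 2 and 3, when 0.441% and 0.426% of all features were called lower. It was 3, 1 and 4 without young replicates 1, 2 and 3 (0.421%, 0.235% and 0.617% of all features). Restricted animals enter through the shared estimate of the spread, and the count was 4, 3 and 5 without their replicates 1, 2 and 4 (1.07%, 0.632% and 1.24%). It was 7 to 15 when any of the other 4 was left out (1.30% to 3.13%).

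**Figure D1:**
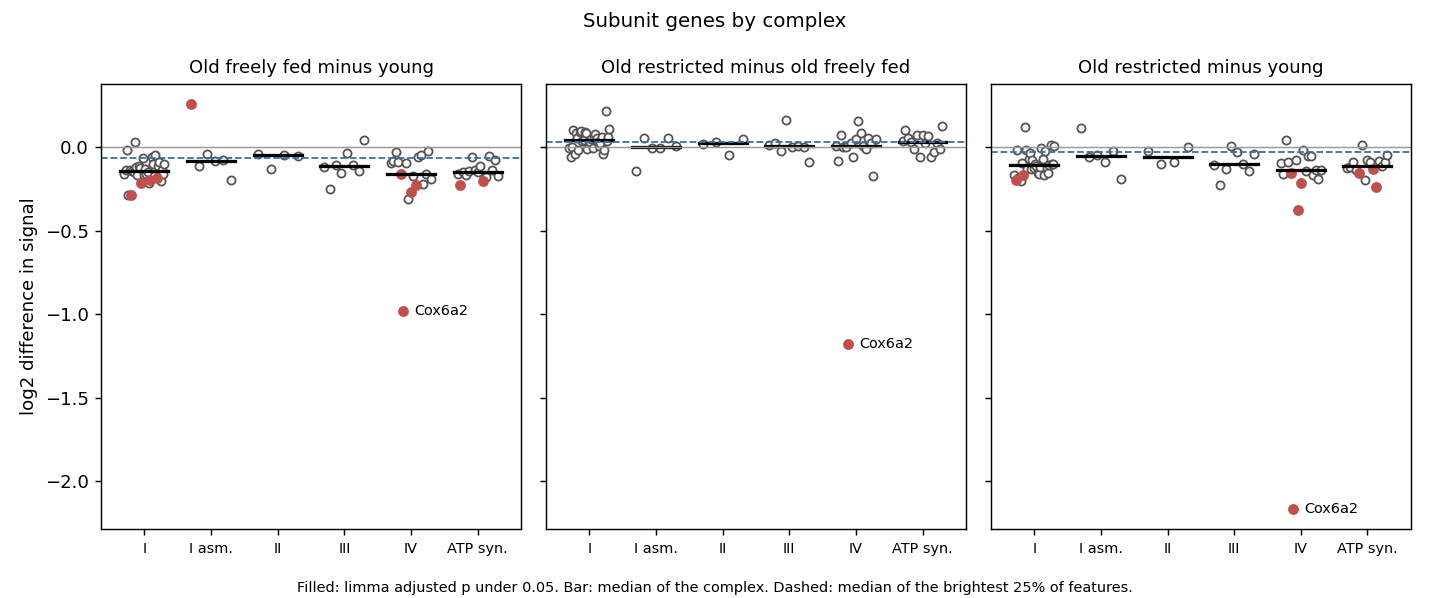
Log2 difference in signal for each of the 82 subunit genes (points), by complex, in the 3 comparisons; filled points are called by limma at an adjusted p under 0.05, bars are medians of a complex and the dashed line is the median of the brightest 25% of features. With age the medians of complexes I, III, IV and the ATP synthase lie between −0.160 and −0.113, with restriction all lie near 0, and Cox6a2 lies far below the other members in each comparison.

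The members were also summarised animal by animal. Taking each gene's deviation from its mean over the 12 animals, the median over the 82 members was 0.108, 0.118, 0.036 and 0.049 in the young animals, 0.005, −0.126, −0.065 and −0.016 in the old freely fed animals, and −0.019, −0.034, −0.036 and 0.003 in the restricted animals. No young animal overlapped with either old group. The same median over the brightest 25% of features was 0.020, 0.042, −0.002 and 0.050 in young and −0.025, −0.066, −0.035 and −0.007 in old freely fed animals. With it subtracted, the member median was 0.087, 0.077, 0.038 and −0.001 in young and 0.030, −0.060, −0.030 and −0.009 in old freely fed animals, which overlapped. After quantile scaling the member medians were 0.054, 0.069, 0.038 and −0.024 in young against 0.030, −0.093, −0.028 and 0.007 in old freely fed animals, and the groups overlapped. In this bulk tissue, fewer cells of a type and less RNA per cell cannot be told apart.

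**Figure D2:**
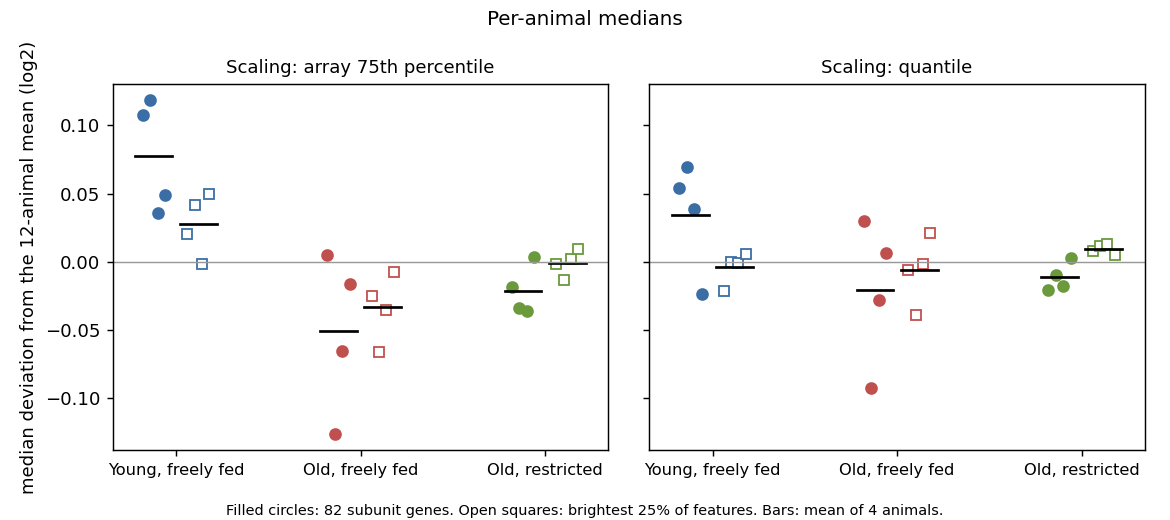
Median deviation of the 82 subunit genes (filled circles) and of the brightest 25% of features (open squares) from each gene's mean over 12 animals, in log2 units, 1 point an animal, with bars at the mean of 4 animals. With scaling to the 75th percentile the young animals lie at 0.036 to 0.118 for the subunit genes, above every old animal, and with quantile scaling young and old animals overlap.

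Complex IV, cytochrome c oxidase, held 4 of the 10 genes that fell with age (17 tested, median −0.160). Cox6c, a small membrane subunit, had levels of 5.70, 5.76, 5.69 and 5.80 in young, 5.50, 5.38, 5.45 and 5.54 in old freely fed and 5.49, 5.53, 5.53 and 5.53 in restricted animals. All 8 old animals of both diets were below all 4 young animals. The age difference was −0.27 (SE 0.043; limma adjusted p = 0.014) and the call held whichever of the 12 animals was dropped, but not after quantile scaling (−0.16, limma adjusted p = 0.056). A pseudogene of this gene, Cox6c-ps1, had a probe of its own at −0.18 with age (limma adjusted p = 0.19), and whether the 2 probes bind each other's transcripts was not tested.

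Cox7a2, the isoform of subunit VIIa found in most tissues, had levels of 3.85, 3.96, 3.82 and 3.83 in young and 3.69, 3.63, 3.57 and 3.67 in old freely fed animals, without overlap (−0.22, limma adjusted p = 0.024). Its second probe gave −0.28, and its call ended in 4 of 12 fits that left out 1 animal and in 6 of 13 other settings. Cox6a1, the widely expressed isoform of subunit VIa, went from 6.26, 6.29, 6.17 and 6.27 to 6.13, 6.08, 6.07 and 6.06 (−0.16, limma adjusted p = 0.045). Neither group overlapped with the other for this gene, but its call ended in 9 of 12 such fits and in 8 of 13 other settings. In the rest of the widely expressed subunits the differences ran from −0.03 for Cox5a to −0.22 for Cox7c, whose animals spread widely (0.90 to 1.21 in young, 0.60 to 1.03 in old; limma adjusted p = 0.19). Ndufa4, named for complex I but a subunit of complex IV, was at −0.19 (limma adjusted p = 0.19), and Cox4i1, the main isoform of subunit IV and a regulator of the enzyme, at −0.10 (limma adjusted p = 0.31).

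The ATP synthase (15 tested, median −0.148) had 2 genes that fell. Atp5mg encodes subunit g of the membrane part, where dimers of the enzyme form, and its levels were 4.82, 4.83, 4.84 and 4.80 in young against 4.67, 4.58, 4.58 and 4.65 in old freely fed animals. The young animals lay close together (SD 0.014, n = 4) and above every old animal (−0.20, limma adjusted p = 0.020; a second probe gave −0.18). Atp5f1b, the catalytic beta subunit, read 2.01, 2.11, 2.10 and 2.09 in young and 1.90, 1.70, 1.90 and 1.91 in old freely fed animals (−0.22, limma adjusted p = 0.040). Old freely fed replicate 2 was the lowest. Leaving out each of the 12 animals in turn ended the call 9 times, with differences of −0.25 to −0.18, and 8 of 13 other settings ended it too. Atp5f1a, the alpha subunit beside it in the catalytic head, was at −0.16 without overlap (limma adjusted p = 0.072). The stalk subunits of F1 (Atp5f1c, Atp5f1d and Atp5f1e) lay between −0.17 and −0.15, the c-ring genes Atp5mc1 and Atp5mc2 at −0.14 and −0.15, and the peripheral stalk between −0.17 (Atp5po) and −0.06 (Atp5pb), and none of these passed. Atp5if1, the inhibitor that binds F1 when the enzyme would run backwards, was at −0.06 (limma adjusted p = 0.40).

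Complex I was the largest group (32 tested, the paralogue included, median −0.141), with 4 genes that fell and 10 without overlap on the lower side. Those that fell were accessory subunits. Ndufs4, a late-assembling subunit of the matrix arm, had levels of 2.012, 2.083, 2.003 and 1.9965 in young and 1.85, 1.77, 1.81 and 1.92 in old freely fed animals (−0.19, limma adjusted p = 0.044). Its second probe gave −0.34, but Ndufs4 was not called in the setting that used second probes. Ndufa2, also in the matrix arm, read 2.35, 2.27, 2.15 and 2.14 against 2.14, 1.83, 1.87 and 1.92 (−0.29, limma adjusted p = 0.044). Its groups touched at 2.14. Ndufb2 and Ndufb9, in the membrane arm, were at −0.22 and −0.20 (limma adjusted p = 0.036 and 0.038). The calls of Ndufs4, Ndufa2, Ndufb2 and Ndufb9 ended in 9, 10, 7 and 9 of the 12 fits that left out 1 animal. They also ended in 10, 8, 8 and 9 of 13 other settings.

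Among the 7 catalytic core subunits of the matrix arm, which carry the flavin and the iron-sulphur clusters, 0 were called by limma, all 7 were below 0 and 4 had an unadjusted p under 0.05. Counts at this unadjusted threshold, here and below, stand without the share of all features and do not set members apart from other genes. Differences of the 7 core subunits ran from −0.20 (Ndufs8) to −0.05 (Ndufs3), with Ndufv1, which binds NADH, at −0.14 and Ndufs1 at −0.10. The 15 accessory subunits of the membrane arm ranged from −0.29 (Ndufa11) to −0.06 (Ndufc2). Ndufa7 (0.03, limma adjusted p = 0.78) was the 1 complex I gene of 32 above 0 with age.

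Ndufaf1, an assembly factor that builds the membrane arm of complex I and is not part of the finished enzyme, was the member that rose. It had levels of −3.00, −2.79, −2.88 and −3.01 in young, −2.70, −2.70, −2.60 and −2.65 in old freely fed and −2.76, −2.84, −2.81 and −2.80 in restricted animals. Old freely fed animals were all above the young (0.26, SE 0.058; limma adjusted p = 0.038), and also all above the restricted animals (−0.14 with restriction, limma adjusted p = 0.19). The rise passed after quantile scaling (0.27, limma adjusted p = 0.047) but in only 3 of the 12 fits that left out 1 animal. The other 5 assembly factors of the family were between −0.20 (Ndufaf8) and −0.04 (Ndufaf4), none called by limma. For Ndufaf4, 3 further probes gave 0.05 to 0.13.

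Complex II, which also works in the citric acid cycle, had the median nearest 0 (4 tested, −0.049; 0.004 after quantile scaling). Sdha, its flavoprotein, had levels of 2.82, 2.88, 2.83 and 2.82 in young and 2.75, 2.77, 2.85 and 2.81 in old freely fed animals, which overlapped. Sdhb, the iron-sulphur subunit, was at −0.13 and did not overlap, and the membrane anchors Sdhc and Sdhd were both at −0.05. By limma 0 of 4 were called, and 1 had an unadjusted p under 0.05. Whether complex II differs from the other complexes was not tested.

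Complex III (8 tested, median −0.113) had 0 genes called by limma and 5 with an unadjusted p under 0.05, all lower. Uqcrfs1, the Rieske iron-sulphur protein, was at −0.11, and the core proteins Uqcrc1 and Uqcrc2 at −0.16 and −0.03. Uqcrq was above 0 (0.04, limma adjusted p = 0.77). Uqcr11, a small subunit, had 3 probes. The one that represents it and the third gave −0.25 and −0.19 with age. The other gave 1.55, because it read −2.53 in young replicate 4 against 4.07 to 4.53 in the other 11 animals. Without that animal it gave −0.18. That probe was the brightest of the 3 over the other 11 animals and ranked second only through this reading, so the rule's choice of probe for Uqcr11 rests on 1 value on 1 array.

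**Figure D3:**
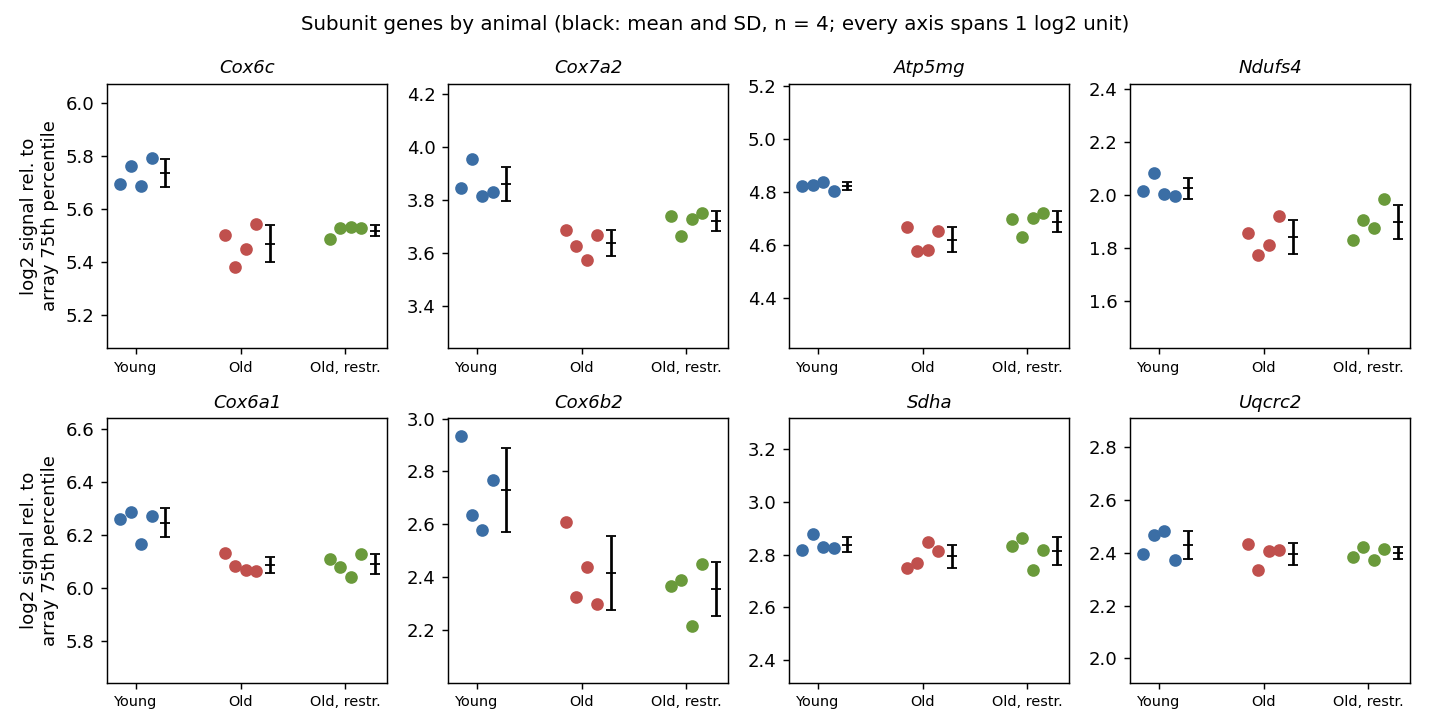
Levels of 8 subunit genes by animal (points, log2 signal relative to the array's 75th percentile; every axis spans 1 log2 unit) with the mean and SD of 4 animals a group in black. Cox6c, Cox7a2, Atp5mg, Ndufs4 and Cox6a1 fell with age, Cox6b2 was called lower in old restricted against young animals only, and Sdha and Uqcrc2 are shown as genes whose young and old freely fed animals overlap.

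Cox6a2 stood apart from all other members. It encodes the isoform of subunit VIa of heart and skeletal muscle, and its levels were −1.78, −1.46, −0.77 and −1.61 in young (mean −1.40 ± 0.45, SD, n = 4), −2.33, −2.81, −2.18 and −2.23 in old freely fed (−2.39 ± 0.29, SD, n = 4) and −3.48, −3.53, −3.93 and −3.34 in old restricted animals (−3.57 ± 0.25, SD, n = 4). The 3 groups did not overlap at any point. It fell with age by 0.98 on the log2 scale (SE 0.21; limma adjusted p = 0.036), again by 1.18 with restriction (limma adjusted p = 0.015), and the old restricted animals were lower than young animals by 2.16 (limma adjusted p = 0.00088), a change in signal of −77.7%. After quantile scaling the differences were −0.97, −1.18 and −2.15, all called (1.99% of all features were then called lower with restriction). The difference with restriction passed in all 13 other settings and all 12 fits that left out 1 animal, with a limma adjusted p of 0.007 to 0.043 in the latter. The difference with age passed in 11 of 13 settings and in 6 of 12 such fits (limma adjusted p = 0.032 to 0.080), and was lost without old freely fed replicates 2 or 3, restricted replicates 1 or 2, or young replicates 2 or 3. Restriction and slide cannot be told apart for it either.

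Cox6a2 is a muscle isoform, so the markers of striated muscle were read beside it. Of 19 listed, 13 were tested, and the summed signal of these, in multiples of the array's 75th percentile, was 74.8 to 104 in young, 52.0 to 80.8 in old freely fed and 53.0 to 61.8 in restricted animals. Des, the intermediate filament desmin, which is also listed for smooth muscle, made up 54.1% to 72.1% of these sums. Without it they were 26.6 to 47.6, 14.99 to 30.9 and 17.2 to 20.3. Tnnc2, the calcium-binding troponin of fast muscle, was at 5.06, 5.04, 5.24 and 4.19 in young, 4.47, 3.55, 3.65 and 3.13 in old freely fed and 3.38, 3.59, 3.36 and 3.71 in restricted animals. It was the 1 marker of 13 called with age (−1.18, limma adjusted p = 0.040), and with restriction it was at −0.19 (limma adjusted p = 0.73). With restriction 1 of 13 was called, the calcium pump Atp2a1 (−1.17, limma adjusted p = 0.023), which had been at 0.76 with age (limma adjusted p = 0.084). Between old restricted and young animals 6 fell (5.99% of all features were called lower): Acta1, Casq1, Des, Pvalb, Tnnc2 and Tnnt3. Ckm, muscle creatine kinase, was at −0.45 with age (limma adjusted p = 0.056) and 0.07 with restriction, where Tnni2, the inhibitory troponin of fast muscle, was at 0.24 (limma adjusted p = 0.14). Ckm and Tnni2 were the only markers of the 13 above 0 with restriction. After Atp2a1 the lowest were Myh7 (−0.92, limma adjusted p = 0.31) and Pvalb (−0.88, limma adjusted p = 0.068). The median deviation of the 13 from their 12-animal means was 0.05 to 0.73 in young, −0.26 to 0.44 in old freely fed and −0.44 to −0.23 in restricted animals. Myh1, Myh2, Myh4, Tnni1, Mylpf and Myl1, which include the fast myosins, had no probe that entered. The summed signal of 7 tested adipocyte markers was 6.33 to 9.23 in young, 9.09 to 9.93 in old freely fed and 6.25 to 7.60 in restricted animals. The part of these cells in the Cox6a2 result was not tested.

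**Figure D4:**
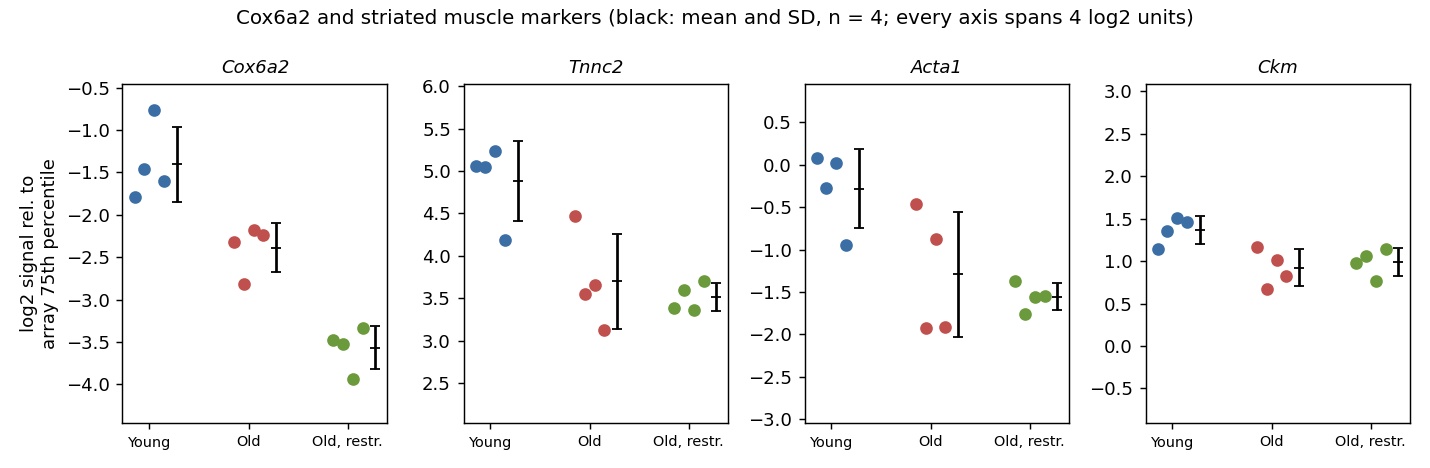
Levels of Cox6a2 and of 3 striated muscle markers by animal (points, log2 signal relative to the array's 75th percentile; every axis spans 4 log2 units) with the mean and SD of 4 animals a group in black. Cox6a2 forms 3 separate groups, while old freely fed and restricted animals overlap for Tnnc2, Acta1 and Ckm. They do not overlap for 2 markers that are not plotted. These are Pvalb (−5.10 to −4.25 in old freely fed, −5.80 to −5.38 in restricted) and Atp2a1 (−4.33 to −3.32 and −5.28 to −5.07).

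Other isoforms tied to particular tissues did not share that pattern. Cox6b2, known as the testis isoform of subunit VIb, had levels of 2.93, 2.64, 2.58 and 2.77 in young, 2.61, 2.33, 2.44 and 2.30 in old freely fed and 2.37, 2.39, 2.21 and 2.45 in restricted animals. It was called lower between restricted and young animals (−0.37, limma adjusted p = 0.026; after quantile scaling −0.33, limma adjusted p = 0.036), and was at −0.31 with age (limma adjusted p = 0.067). Cox4i2, the isoform of lung and hypoxic cells, was at −0.08 with age and −0.08 with restriction (limma adjusted p = 0.42 and 0.46). Cox8b, of heart and skeletal muscle, was the dimmest member, at −5.49 to −5.30 in young, −5.56 to −5.35 in old freely fed and −5.74 to −5.31 in restricted animals, and all groups overlapped.

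Apart from Cox6a2, no subunit gene was called with restriction in old age by limma. The median difference between old restricted and old freely fed animals was 0.026, with 57 of 82 members above 0, against 0.025 over all features and 0.030 over the brightest 25%. By limma 1 member fell (Cox6a2; 2.02% of all features were called lower) and 0 rose (1.62% of all features), with 5 members at an unadjusted p under 0.05 on the higher side. Values did not overlap for 2 lower members, Cox6a2 and Ndufaf1 (6.05% of all features), and for 3 higher ones (8.64%). These 3 were Ndufs8, Uqcrc1 and Ndufb11. Ndufs8, an iron-sulphur subunit of the complex I core, was at 0.31, −0.0013, 0.23 and 0.29 in old freely fed and 0.44, 0.42, 0.46 and 0.37 in restricted animals (0.22, limma adjusted p = 0.10). Young animals had 0.48, 0.48, 0.38 and 0.30, which the restricted animals overlapped. Uqcrc1, a core protein of complex III, went from 1.74, 1.53, 1.69 and 1.71 to 1.92, 1.81, 1.77 and 1.81 (0.16, limma adjusted p = 0.13), beside 1.89, 1.86, 1.83 and 1.72 in young animals.

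The genes that fell with age were chosen for low values in the same old freely fed animals from which the restriction difference is measured. That choice by itself pulls the difference upward, so its intervals are not unbiased limits on an effect of restriction. The 95% interval of this difference was −0.04 to 0.14 for Cox6c, −0.01 to 0.17 for Cox7a2, −0.01 to 0.15 for Atp5mg, −0.01 to 0.22 for Atp5f1b and −0.04 to 0.16 for Ndufs4. It was −0.08 to 0.09 for Cox6a1, −0.07 to 0.23 for Ndufa2, and −0.02 to 0.18 for both Ndufb2 and Ndufb9. These 9 intervals include 0, and that of Cox6a2 (−1.65 to −0.71) does not. Over the 82 members the median half-width of this interval was 0.11. Medians by complex were 0.041 for complex I, 0.028 for the ATP synthase, 0.025 for complex II, 0.006 for complex IV and 0.005 for complex III.

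Old restricted animals were also compared with young animals, a comparison that shares its animals with the other 2. The median was −0.103 (−0.012 over all features and −0.030 over the brightest 25%; −0.052 after quantile scaling), with 75 of 82 members below 0. By limma 9 members fell, or 10.98%, against 5.99% of all features called lower and 7.17% of the brightest 25%. They were Cox6a2, Cox6b2, Cox6c, Cox6a1, Atp5mg, Atp5mk, Atp5f1e, Ndufa10 and Ndufa6. No member rose (0 by limma, with 1 at an unadjusted p under 0.05; 3.19% of all features were called higher). After quantile scaling 3 fell, against 4.31% of all features. The count was 2, 3 and 3 without restricted replicates 1, 2 and 3 (4.01%, 2.72% and 2.25% of all features called lower) and 3 without young replicate 1 or 2 (3.19% and 3.54%). It was 6 to 13 when any of the other 7 animals was left out (4.40% to 6.52%). Values did not overlap for 26 lower members (31.7%; 10.8% of all features and 12.8% of the brightest 25%) and 1 higher, Ndufa7 (7.16% of all features).

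Side by side, Cox6c was at −0.27 in old freely fed and −0.22 in old restricted animals relative to young (limma adjusted p = 0.014 and 0.013), Cox6a1 at −0.16 in both (limma adjusted p = 0.045 and 0.031), and Atp5mg at −0.20 and −0.13 (limma adjusted p = 0.020 and 0.040). Ndufa6, an accessory subunit of the matrix arm, read 4.30, 4.32, 4.27 and 4.34 in young, 4.16, 4.11, 4.13 and 4.22 in old freely fed and 4.08, 4.17, 4.12 and 4.18 in restricted animals. Every old animal of either diet was below every young one, with differences of −0.15 and −0.17 (limma adjusted p = 0.050 and 0.021). Ndufa10, in the membrane arm, was at −0.14 and −0.19 (limma adjusted p = 0.12 and 0.033). Atp5f1e, the epsilon subunit of the F1 stalk, was at −0.15 and −0.16 (limma adjusted p = 0.064 and 0.037), and Atp5mk, a small membrane subunit, at −0.18 and −0.24 (limma adjusted p = 0.13 and 0.046). Cox6c and Cox6a2 kept the call between restricted and young animals in all 12 fits that left out 1 animal, and Cox6b2 and Cox6a2 in all 13 other settings. Atp5mg, Atp5mk and Atp5f1e kept it in only 4 of those fits, and in 2, 2 and 5 of the settings. Ndufa10, Cox6a1 and Ndufa6 kept it in 6, 7 and 9 of the fits and in 9, 7 and 10 of the settings. Cox6b2 kept it in 8 of the fits and Cox6c in 11 of the settings.

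Other mitochondrial genes were described in the same way, beside 2.11% of all features called lower with age. Of 17 genes of the citric acid cycle and pyruvate dehydrogenase, 16 were below 0 with age (median −0.129, −0.087 after quantile scaling) and 1 fell, the NADP-linked isocitrate dehydrogenase Idh2 (−0.31, limma adjusted p = 0.036). It was lower still between restricted and young animals (−0.45, limma adjusted p = 0.004), where the succinate-CoA ligase subunit Suclg1 also fell (−0.22, limma adjusted p = 0.045). Of 9 genes for exchange across the inner membrane and for creatine kinase, 1 fell with age, Mpc2, a subunit of the pyruvate carrier (−0.20, limma adjusted p = 0.036; list median −0.151). The phosphate carrier Slc25a3 fell between restricted and young animals (−0.23, limma adjusted p = 0.024). Of 14 genes of import and inner membrane organisation, 1 fell with age, Chchd3, part of the complex that holds cristae junctions (−0.19, limma adjusted p = 0.040; list median −0.089).

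Among 13 regulators of mitochondrial biogenesis 1 was called. Ppargc1a, the coactivator known for driving the transcription of respiratory genes, fell with age by 0.68 on the log2 scale (limma adjusted p = 0.026; after quantile scaling −0.66, limma adjusted p = 0.047) and was at −0.84 between restricted and young animals (limma adjusted p = 0.005). With restriction it was at −0.15 (limma adjusted p = 0.54), and the list median with age was −0.018. The 30 assembly factors outside the member families had a median of −0.037 with age and 1 that fell, Ttc19 of complex III (−0.32, limma adjusted p = 0.050, just under the threshold). The 15 genes of electron carriers and coenzyme Q synthesis had a median of −0.075 and 0 called by limma with age (2 lower and 1 higher at an unadjusted p under 0.05). Coq7, a hydroxylase of coenzyme Q synthesis, was the one gene of these lists called with restriction (0.37, limma adjusted p = 0.047; after quantile scaling 0.36, limma adjusted p = 0.065).

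Ribosomal protein genes, which are bright too, served as a further measure of the scaling. The 66 mitochondrial ones had a median of −0.075 with age (−0.032 after quantile scaling) and the 85 cytosolic ones −0.100 (0.016 after quantile scaling), and 0 of either were called with age by limma, with 23 of each lower at an unadjusted p under 0.05. The median of the cytosolic list thus changed sign with the scaling, while that of the subunit genes stayed below 0 under both. By animal, the cytosolic median deviation before quantile scaling was −0.034, 0.045, −0.046 and 0.197 in young animals. It was −0.071, −0.083, −0.044 and −0.023 in old freely fed animals, so the young side leaned on replicate 4. Whether these lists differ from each other was not tested.

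**Figure D5:**
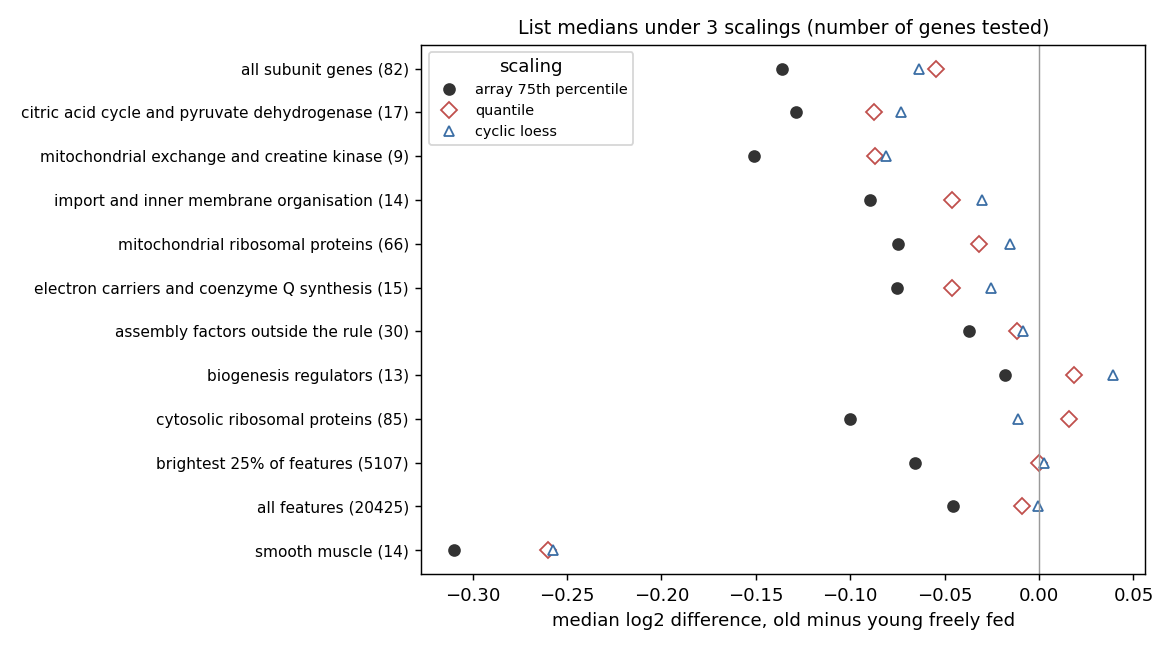
Median log2 difference between old and young freely fed animals for the subunit genes, other mitochondrial lists, ribosomal proteins, features at large and smooth muscle markers, under 3 scalings between arrays (number of genes tested in brackets). The subunit median lies at −0.136, −0.054 and −0.064, and that of cytosolic ribosomal proteins at −0.100, 0.016 and −0.011.

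Some markers of the tissue's cell types were called with age as well, and their values stand beside those of the subunit genes. Of all features 2.11% were called lower with age and 1.63% higher. The 14 tested smooth muscle markers were all below 0 (median −0.310, −0.260 after quantile scaling) and 4 fell: Myh11, Myl9, Mylk and Tpm2. Their summed signal was 654 to 690 in young, 453 to 620 in old freely fed and 519 to 603 in restricted animals, so no old animal reached the young range. The lowest sum is that of old freely fed replicate 4, where Tagln read −1.97 against 5.82 to 6.24 in the rest of its group. Without Tagln the sums were 577 to 611, 447 to 544 and 459 to 529. Leukocyte markers went the other way, with 6 of 12 called higher in old freely fed animals by limma and summed signals of 12.2 to 14.7, 17.6 to 29.4 and 13.5 to 17.5. The 12 tested urothelial markers summed to 342 to 377, 302 to 340 and 355 to 362. The only one of them called with age was Krt5, which was higher (0.66, limma adjusted p = 0.036). It was also higher in restricted than in young animals (1.01, limma adjusted p = 0.003). Of 11 tested nerve markers, 2 fell with age by limma: Stmn2 (−1.02, adjusted p = 0.044) and Prph (−0.41, adjusted p = 0.036). Their sums were 57.1 to 65.1, 52.9 to 59.0 and 59.7 to 65.5, and the median difference was −0.412. Of 9 fibroblast markers 1 fell, the collagen gene Col1a2 (−0.26, limma adjusted p = 0.034), and the sums were 201 to 274, 169 to 232 and 215 to 223. Their part in the subunit differences was not tested.

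Promoters were read because most member differences with age lay below 0, and RefSeq entries of the GRCr8 assembly (250 bases before to 50 after the gene start) were matched for 72 of the 82 members. The 5 motifs were searched on both strands. The NRF1 motif, whose 10 letters stand in capitals in the Atp5po sequence below and read the same on both strands, was in 6 member promoters (8.33%; 0.852% of all 33469 promoters), at −158 to −15 from the start. The YY1 motif, the 11 letters in capitals in the windows below, was in 8 (11.1%; 0.675% of all). The GABP motif CCGGAAGT was in 7 (9.72%; 3.81%), the ERR motif TCAAGGTCA in 1 (1.39%; 0.433%) and the SP1 motif, a GC box, in 3 (4.17%; 6.11%). No matches of 2 different motifs overlapped. Among the 21851 protein-coding promoters the shares were 1.08% (NRF1), 0.966% (YY1), 4.77% (GABP), 0.366% (ERR) and 8.31% (SP1). In total 25 of 72 held a match (34.7%, against 14.5% of protein-coding promoters), and 4 of the 13 called members with a promoter entry did.

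The YY1 matches are shown because they lay at the same place in genes of 2 complexes: each read in the direction of the gene and began between −1 and 27 from its start. Across coding genes, 66.1% of the 168 promoters with a forward match had it between −1 and 30. The match itself holds the letters ATG. The 29-base windows below, 5′ to 3′ on the gene's strand, have the match in capitals.
Ndufs4 (GRCr8 chr2:47794891-47794919, minus strand): gcccacaggAAGATGGCGGCggtctcaat
Ndufa6 (GRCr8 chr7:115750283-115750311, minus strand): ttccttagcAAGATGGCGGCcgcggccag
Ndufa9 (GRCr8 chr4:161374141-161374169, minus strand): ttgtgggagAAGATGGCGGCcgccgtccg
Ndufb8 (GRCr8 chr1:253362896-253362924, minus strand): gagaaggtgAAGATGGCGGCgtcccgggc
Ndufs7 (GRCr8 chr7:10110475-10110503, minus strand): gccgaggccAAGATGGCGGCgctggcggg
Ndufaf8 (GRCr8 chr10:105879901-105879929, plus strand): gcagggcccAAGATGGCGGCgcccacaag
Uqcrc1 (GRCr8 chr8:118468213-118468241, plus strand): ggaagttagAAGATGGCGGCgtccgcagt
The other gene with this motif was Ndufa2. Age differences of the 8 genes ran from −0.29 to −0.09 (median −0.170), and those of the 47 members without any match had a median of −0.130. The 6 genes with the NRF1 motif had a median of −0.132.

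Cox6a2, the member that differed most between groups, held none of the 5 motifs in its window, while Atp5po, a peripheral stalk subunit at −0.17 with age (limma adjusted p = 0.087), held the NRF1 motif. Both promoters are given 5′ to 3′ on the gene's strand, with the NRF1 match in capitals. A missing match says only that these letters are not in this window.
Cox6a2 (GRCr8 chr1:192219667-192219966, minus strand): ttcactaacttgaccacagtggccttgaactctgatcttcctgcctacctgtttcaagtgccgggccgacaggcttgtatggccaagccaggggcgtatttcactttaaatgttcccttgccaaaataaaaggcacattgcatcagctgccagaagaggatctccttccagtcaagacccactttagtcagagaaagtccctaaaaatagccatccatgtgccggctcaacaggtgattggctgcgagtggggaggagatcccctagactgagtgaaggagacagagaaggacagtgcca
Atp5po (GRCr8 chr11:44657434-44657733, minus strand): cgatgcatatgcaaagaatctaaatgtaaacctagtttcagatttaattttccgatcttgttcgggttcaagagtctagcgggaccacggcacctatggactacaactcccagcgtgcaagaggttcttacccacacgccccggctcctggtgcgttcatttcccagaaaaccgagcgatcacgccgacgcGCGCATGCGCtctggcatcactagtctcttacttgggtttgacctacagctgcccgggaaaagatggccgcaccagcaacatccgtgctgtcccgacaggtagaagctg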

How the data were processed

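Bladder body RNA of 12 rats was labelled with Cy3 and hybridised to 1-colour Agilent rat arrays, per the labels' protocols. The authors deposited spot intensities, unscaled between arrays; per the file headers, background subtraction and detrending were done in Agilent Feature Extraction 10.7. The deposited table of processed values equalled the scanner files' processed signal in 100% of spots (relative tolerance 1e-06) and added no value. Nothing says whether RNA samples were processed together, so p-values measure the spread between these animals.

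Log2 signals were taken relative to each array's 75th percentile. Spots were averaged per probe, leaving out outlier spots, and 17998 of 30367 probes were named through a RefSeq table of GRCr8, used for names. Probes well above background (over 0.5 of spots) on all 4 arrays of a group were kept (23089), and the brightest stood for a gene. Tests used limma 3.58 in R 4.3 on all 12 arrays, with moderated errors following brightness (9 residual and 2.72 prior degrees of freedom). No depth exists for arrays; 4 a group limit the precision. Members, lists and motifs were chosen with earlier results of these data known. Named were all called members, those with the smallest p or largest difference, isoforms, the inhibitor and catalytic genes, while other named members illustrate groups and were chosen after their values were seen. Cox7a1 and Ndufa4l2 were not analysed here, and Cyc1 had no probe of that symbol. A gene that the naming rule takes is not reported here, though the counts include it. On simulated data for age over 20425 features, the share of changed genes recovered was 20% at 1.2-fold, 62% at 1.5-fold, 82% where genes changed 2-fold and 94% where they changed 3-fold, with 6 false calls. The simulated noise was independent between genes, without shifts shared across an array, so these figures do not cover errors from such shifts. Alternatives covered scaling, background correction, filters, choice of probe, the error model, a replicate block and leaving out each animal.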

Additional observations from a re-analysis of the deposited data

Results flagged for a closer look

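In groups of 4, a value far from the other 3 was looked for in 37 named members and in the medians of all members and of each complex, 132 groups in all, and 4 were found, where about 1 in 20, or 6.6, would be found by chance. In old freely fed replicate 2, Atp5f1b read 1.70 against 1.90 to 1.91 in the others of its group. Cox6c in old restricted replicate 1 read 5.49 against 5.53 in the others. In young replicate 4, Ndufb2 read 3.91 against 4.02 to 4.04. Ndufb9 in old restricted replicate 2 read 3.78 against 3.85 to 3.86. Each of the 4 lay on the low side.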

How the results depend on the processing

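The count of members called lower with age (10) was 4 with the 75th percentile taken over probes well above background on all 12 arrays, 2 with cyclic loess, 22 with no filter on dim probes, 2 with median centring, 4 without the brightness trend, 6 with normexp (on median signals), 2 with normexp and quantile scaling, 1 with quantile scaling and 0 with only the 2 groups compared. The count called higher with age (1) was 0 with normexp under either scaling and with only the 2 groups. The median with age (−0.136) was −0.085 with the all-array percentile, −0.064 with cyclic loess, −0.058 with normexp and quantile scaling and −0.054 with quantile scaling. Between old restricted and young animals the count called lower (9) was 5, 5, 2, 2 and 3 with the all-array percentile, cyclic loess, median centring, normexp with quantile scaling and quantile scaling, and the median (−0.103) was −0.051 and −0.052 with the last 2. In the same order, 4.52%, 5.66%, 4.26%, 4.01% and 4.31% of all features were called lower in this comparison. The share of all features called lower with age (2.11%) went from 0.132% with only the 2 groups to 10.69% with no filter, and was 1.09%, 0.710% and 0.999% with cyclic loess, median centring and no brightness trend. No direction of a called result reversed, and the causes were not tested. Leaving out 1 animal, the age count ranged from 1 (without old freely fed replicate 3 or young replicate 2) to 15 (without old freely fed replicate 1), the count higher from 0 to 1 and the median from −0.152 to −0.109. For restriction these were 1 to 1, 0 to 0 and 0.002 to 0.046, and for restricted against young animals 2 to 13, 0 to 0 and −0.119 to −0.091. Deviations from the group means had correlations of −0.19 to 0.10 between same-numbered animals. The numbers are those of the source labels, while the sample titles carry others, which were not tried. They equal the position of the array within its row, so these correlations cannot show whether animals were paired. With the replicate number as a block 6 members were called lower and 0 higher with age (1.39% and 1.05% of all features).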
